A study of Mus musculus with 27 samples.

Results

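The 30 genes described here encode enzymes that make cholesterol, the proteins that control this synthesis through the transcription factor SREBP2, and proteins that move or store sterols. They were taken by gene symbol from a list of the pathway. The rule uses no measured value, but the list was drawn up with earlier results of these data known. All 30 were present among the 17655 genes in the deposited liver tables. The list holds 8 enzymes of the early isoprenoid steps, 12 enzymes of the squalene and sterol steps, 5 control proteins and 5 proteins of transport and storage, and it does not hold every gene of the pathway.

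Cholesterol is built in the endoplasmic reticulum from acetyl-CoA through mevalonate, farnesyl diphosphate, squalene and lanosterol. The transcription factor SREBP2, encoded by *Srebf2*, is held in that membrane by SCAP and the INSIG proteins while sterols are plentiful. When membrane cholesterol falls, SCAP carries SREBP2 to the Golgi, where proteases release its active part, which then switches on the genes of synthesis and uptake. The liver balances its own synthesis against cholesterol from the diet, exports sterol into lipoproteins and bile, and stores the surplus as cholesteryl ester.

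RNA from whole liver was sequenced in 27 mice, 3 in each of 9 groups, and every mouse carried the floxed allele *Kdm5b* fl/fl. *Kdm5b* encodes a demethylase of histone H3 lysine 4. WT mice received an AAV without Cre, KO mice received AAV-CMV-Cre, whose promoter is not restricted to a cell type, and HepKO mice received AAV8-TBG-Cre, whose promoter is active in hepatocytes. The WDA groups (WT and KO females and males, and HepKO females) were fed a high-fat Western diet and drank alcohol in water, for 8 weeks by their labels, which is shorter than the feeding time in the study's methods. The resolution (Res) groups (WT and KO females and males) had 16 weeks of WDA, then the vector, then 4 weeks on chow and plain water. Stage therefore coincides with the experiment number, the length of feeding, the time of vector delivery and the change of diet, and these cannot be told apart. The labels give no age. Each library is 1 mouse, and mouse numbers repeat between the experiments without naming the same animal.

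The summed counts per library were 14634602 to 19388251 (median 17944536). *Kdm5b* lay at 21.4 to 31.2 CPM (reads on the gene scaled to the library's effective size) in WT and 14.5 to 24.1 CPM in KO WDA females, and at 16.6 to 17.4 against 10.7 to 13.2 CPM in Res females. It lay at 23.5 to 24.9 against 20.6 to 22.0 CPM in WDA males, at 18.8 to 19.6 against 7.93 to 17.2 CPM in Res males, and at 8.30 to 17.4 CPM in HepKO females. No vector comparison of *Kdm5b* passed the adjusted threshold, and gene-level counts do not isolate the floxed exon. WT WDA female mouse 7 and KO WDA male mouse 17 stood apart. Their summed CPM of 6 cholangiocyte markers was 465 and 529, against 16.4 to 105 in the other WT and KO WDA mice. Of these sums *Spp1* alone gave 420 and 479 CPM, while *Krt19* was at 6.44 and 7.07 CPM, against 0.232 to 1.64. The summed CPM of 7 macrophage markers was 1051 and 727 in these 2 mice. It was 246 to 508 in the other WT and KO WDA mice and 340 to 677 in HepKO females. Among the Res mice, WT female 13 (236), KO male 5 (198) and WT male 9 (155) were above the other 9 (19.4 to 35.6). The summed CPM of 6 stellate cell markers was 585 and 698 in mice 7 and 17 and 478 in WT Res female 13, whose groupmates had 261 and 269. For some of the results that rest on these libraries, values without them are also given. In bulk tissue, fewer cells of a type and less RNA per cell cannot be told apart.

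Promoter sequence was at hand for 24 of the 30 genes, in 30 windows that run from 250 bases before to 50 bases after a RefSeq start site (GRCm38.p6). The windows were searched on both strands for TCACNCCA, the core of the classical sterol regulatory element bound by SREBP proteins, and for CCAAT and GGGCGG, the motifs of the usual SREBP partners NF-Y and Sp1. TCACNCCA stood in 3 of 30 windows (10%), those of *Hmgcs1*, *Msmo1* and *Srebf2*, against 4.36% of 32851 mouse promoters. CCAAT stood in 21 of 30 (70%), against 37.4%, and GGGCGG in 25 of 30 (83.3%), against 35.7%. These shares are descriptions of letters in a window, and the *Hmgcs1*, *Msmo1* and *Srebf2* windows are shown because they hold all 3 motifs. The *Idi1* and *Cyp51* windows are shown because these genes had the clearest difference between stages without holding TCACNCCA, and the *Insig1* window because this gene differed between the sexes. Capitals mark every match to the 3 motifs, by their 8, 5 or 6 letters, and no matches overlapped in these 6 windows. The windows lie at chr13:119690101-119690400 (plus strand) for *Hmgcs1*, chr8:64733529-64733828 (minus strand) for *Msmo1*, chr15:82147019-82147318 (plus strand) for *Srebf2*, chr13:8885356-8885655 (plus strand) for *Idi1*, chr5:4104648-4104947 (minus strand) for *Cyp51* and chr5:28071162-28071461 (plus strand) for *Insig1*, each ending in the first transcribed bases of its gene.
Hmgcs1: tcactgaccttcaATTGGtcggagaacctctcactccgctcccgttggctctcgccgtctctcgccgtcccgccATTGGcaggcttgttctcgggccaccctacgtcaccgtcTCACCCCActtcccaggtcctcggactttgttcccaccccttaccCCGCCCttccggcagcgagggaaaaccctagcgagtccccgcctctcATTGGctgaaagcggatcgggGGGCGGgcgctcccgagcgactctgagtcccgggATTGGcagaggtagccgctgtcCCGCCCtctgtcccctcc
Msmo1: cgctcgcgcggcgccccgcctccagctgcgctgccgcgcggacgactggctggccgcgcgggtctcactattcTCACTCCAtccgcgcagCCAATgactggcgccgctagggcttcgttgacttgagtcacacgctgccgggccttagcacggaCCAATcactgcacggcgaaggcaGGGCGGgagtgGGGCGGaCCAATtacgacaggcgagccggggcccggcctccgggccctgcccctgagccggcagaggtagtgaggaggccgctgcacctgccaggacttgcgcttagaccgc
Srebf2: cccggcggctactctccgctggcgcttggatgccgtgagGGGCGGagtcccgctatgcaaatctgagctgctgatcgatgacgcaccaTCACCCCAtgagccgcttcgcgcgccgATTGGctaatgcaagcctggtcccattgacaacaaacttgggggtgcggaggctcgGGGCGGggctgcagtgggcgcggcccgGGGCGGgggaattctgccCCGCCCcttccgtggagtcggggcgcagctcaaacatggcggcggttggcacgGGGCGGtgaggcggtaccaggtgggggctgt
Idi1: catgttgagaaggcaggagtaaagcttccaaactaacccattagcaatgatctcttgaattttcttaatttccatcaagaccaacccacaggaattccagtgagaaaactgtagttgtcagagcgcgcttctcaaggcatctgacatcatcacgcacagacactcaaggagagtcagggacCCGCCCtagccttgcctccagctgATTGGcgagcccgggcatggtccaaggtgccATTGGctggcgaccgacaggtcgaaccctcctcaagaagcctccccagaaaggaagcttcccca
Cyp51: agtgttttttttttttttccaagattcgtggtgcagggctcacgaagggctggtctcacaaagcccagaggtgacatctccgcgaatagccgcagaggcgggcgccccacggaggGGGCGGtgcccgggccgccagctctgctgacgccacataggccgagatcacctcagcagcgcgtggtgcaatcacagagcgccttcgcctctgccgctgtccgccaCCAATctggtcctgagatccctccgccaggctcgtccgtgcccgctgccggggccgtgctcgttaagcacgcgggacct
Insig1: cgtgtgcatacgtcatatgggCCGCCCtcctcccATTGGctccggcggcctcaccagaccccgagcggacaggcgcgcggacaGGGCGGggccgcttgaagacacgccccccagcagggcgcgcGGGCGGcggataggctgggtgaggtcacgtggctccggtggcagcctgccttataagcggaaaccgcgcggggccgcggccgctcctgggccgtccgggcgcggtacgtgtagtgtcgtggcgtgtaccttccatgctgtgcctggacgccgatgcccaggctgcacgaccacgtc

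In these windows the TCACNCCA match began 137 bases before the start site in *Hmgcs1*, 177 in *Msmo1* and 162 in *Srebf2*, all on the strand of the gene. A CCAAT match on the reverse strand lay nearby in *Hmgcs1* (176 bases before the start) and in *Srebf2* (135), and one on the forward strand in *Msmo1* (160). The *Cyp51* window held 1 CCAAT (29 bases before the start) and 1 GGGCGG (135). The *Idi1* window held CCAAT 45 and 14 bases before the start and GGGCGG at 69.

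**Figure D1:**
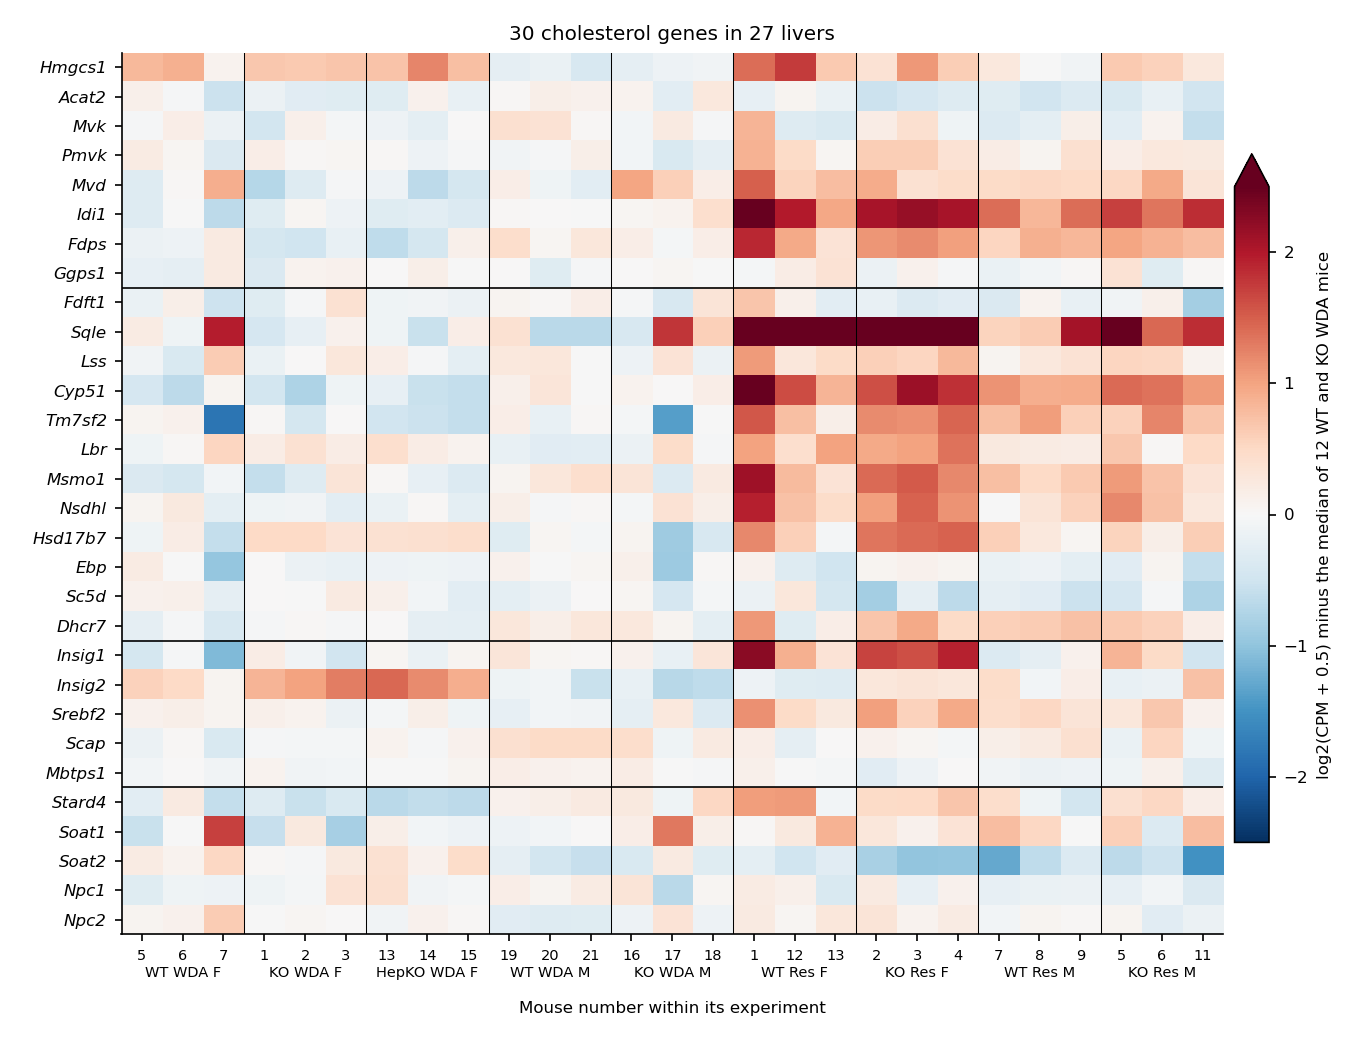
Level of each of the 30 genes (rows, in blocks for isoprenoid steps, squalene and sterol steps, SREBP2 control, and transport and storage) in each of 27 mice (columns, by group and mouse number). Color is log2(CPM + 0.5) minus the median of the 12 WT and KO WDA mice, with values above 2.5 drawn at the end of the scale. *Idi1*, *Cyp51* and *Sqle* are red across the Res females, while *Ebp*, *Scap* and *Mbtps1* stay pale in most mice.

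The genes differed widely in level. By the deposited FPKM, which is scaled by transcript length, the median over the 12 WT and KO WDA livers was highest for *Insig2* (388), followed by *Ebp* (112), *Sc5d* (96.0), *Npc1* (36.8) and *Tm7sf2* (26.4). It was lowest for *Mvd* (0.71) and *Sqle* (0.16). *Sqle* encodes squalene epoxidase, a rate-limiting enzyme of the sterol part of the pathway, and had 1 to 68 counts per WDA library and 13 to 259 per Res library. At this depth its ratios carry a large counting error. After resolution *Insig2* (363), *Ebp* (109.9) and *Sc5d* (77.9) were again at the top.

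The first comparison asked how liver expression differed between mice still on WDA and mice after resolution. Averaged over WT and KO females and males, 17 of the 30 genes were higher and 3 lower in resolution (edgeR quasi-likelihood test, Benjamini-Hochberg adjusted p under 0.05 over all genes), and DESeq2 also called 20. Over all 13534 genes tested, 31.7% were called, 15% higher and 16.7% lower. The median log2 fold change of the 30 genes was 0.43, against 0.00 over all genes. The isoprenoid steps had 5 of 8 higher and 1 lower (median 0.43), and the squalene and sterol steps had 9 of 12 higher and 1 lower (median 0.68). The control proteins had 2 of 5 higher and none lower (median -0.01), and transport and storage had 1 of 5 higher and 1 lower (median 0.06).

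Of the early enzymes, *Idi1*, the isomerase that makes the building block for prenyl chains, moved most. It lay at 6.001, 7.58 and 4.71 CPM in WT and 6.08, 7.96 and 6.94 CPM in KO WDA females, and at 51.1, 31.7 and 15.4 CPM in WT and 33.4, 36.4 and 33.4 CPM in KO Res females. In males it lay at 7.84, 7.68 and 7.65 CPM (WT) and 7.93, 8.13 and 10.4 CPM (KO) on WDA, and at 20.9, 14.1 and 21.1 CPM (WT) and 26.0, 20.1 and 28.9 CPM (KO) in resolution. All 12 Res livers were above all 12 WDA livers. The log2 fold change was 1.88 (SE 0.14, edgeR adjusted p = 1.56e-08), a 3.67-fold rise. *Fdps*, farnesyl diphosphate synthase, ran from 3.95 over a median of 5.81 to 8.03 CPM on WDA and from 7.45 over 11.4 to 22.8 CPM in resolution, and the stages overlapped at WT Res female mouse 13 and WT WDA male mouse 19. Its log2 fold change was 1.04 (SE 0.14, adjusted p = 1e-05).

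The other early enzymes changed less. *Mvd*, the mevalonate diphosphate decarboxylase, rose by 0.73 on the log2 scale, from 0.463 to 2.64 CPM on WDA to 1.48 to 3.94 CPM in resolution, and had only 8 to 70 counts per library. *Hmgcs1*, the cytosolic HMG-CoA synthase, rose by 0.44 and *Pmvk*, phosphomevalonate kinase, by 0.43. *Acat2*, the cytosolic thiolase that starts the pathway, was lower (log2 fold change -0.25, adjusted p = 0.0144), and its value is uncertain because the neighboring gene *Acat3* is nearly identical. In the separate comparisons edgeR called *Acat2* in WT males (-0.45) only. *Mvk* (mevalonate kinase, log2 fold change -0.07) and *Ggps1* (geranylgeranyl diphosphate synthase, 0.09) did not pass the test. In the sequence of steps, enzymes before and after *Mvk* were called higher while *Mvk* itself was not.

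Among the sterol steps, *Cyp51*, the lanosterol demethylase, lay at 7.78, 6.57 and 11.2 CPM in WT and 7.53, 6.04 and 9.74 CPM in KO WDA females, and at 66.7, 33.9 and 19.6 CPM in WT and 33.6, 48.4 and 38.9 CPM in KO Res females. In males it lay at 11.6, 13.2 and 10.5 CPM (WT) and 11.3, 10.7 and 12.0 CPM (KO) on WDA, and at 23.8, 20.2 and 20.7 CPM (WT) and 29.3, 27.97 and 22.8 CPM (KO) in resolution. The stages did not overlap in either sex. The log2 fold change was 1.68 (SE 0.15, adjusted p = 1.51e-07). *Sqle* had the highest fold change of the list, 2.81 on the log2 scale (SE 0.44, adjusted p = 6.96e-05), from a low level. It ran from 0.0605 to 3.02 CPM on WDA and from 0.818 to 14.6 CPM in resolution, and the stages overlapped. Mice 7 and 17 held 3.02 and 2.58 CPM, and WT Res males 7 and 8 held 0.818 and 0.889 CPM.

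*Tm7sf2*, a sterol C14-reductase, ran from 10.2 over a median of 37.2 to 42.0 CPM on WDA and from 41.2 over 70.3 to 110.3 CPM in resolution. Its lowest WDA values, 10.2 and 14.1 CPM, were those of mice 7 and 17. Its log2 fold change was 1.17 (SE 0.20, adjusted p = 0.000129). The second C14-reductase, *Lbr*, which is also a protein of the nuclear envelope, rose by 0.61. *Msmo1*, the methylsterol monooxygenase, went from 6.89 to 14.4 CPM to 13.6 to 48.2 CPM (log2 fold change 1.07). *Nsdhl*, the sterol dehydrogenase of the same demethylation, went from 4.49 to 7.16 CPM to 5.41 to 22.4 CPM (0.91). *Hsd17b7*, the ketoreductase that completes that step, went from 22.0 to 58.7 CPM to 40.02 to 115 CPM (0.75). The 3 enzymes of C4 demethylation were thus all higher in resolution, with ranges that overlapped between the stages.

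*Dhcr7*, the last enzyme of one of the branches to cholesterol, rose by 0.57 and *Lss*, lanosterol synthase, by 0.39. The entry enzyme *Fdft1*, squalene synthase, was not called (log2 fold change -0.09, SE 0.12), nor was the sterol isomerase *Ebp* (-0.03, SE 0.12). *Sc5d*, the sterol C5-desaturase, was lower (-0.30, SE 0.10, adjusted p = 0.0286), and it kept the call in 15 of 27 fits that each left out 1 mouse. *Ebp* and *Sc5d*, the most abundant enzymes of the list by FPKM, were thus not among those that rose, while *Tm7sf2*, the next, was.

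**Figure D2:**
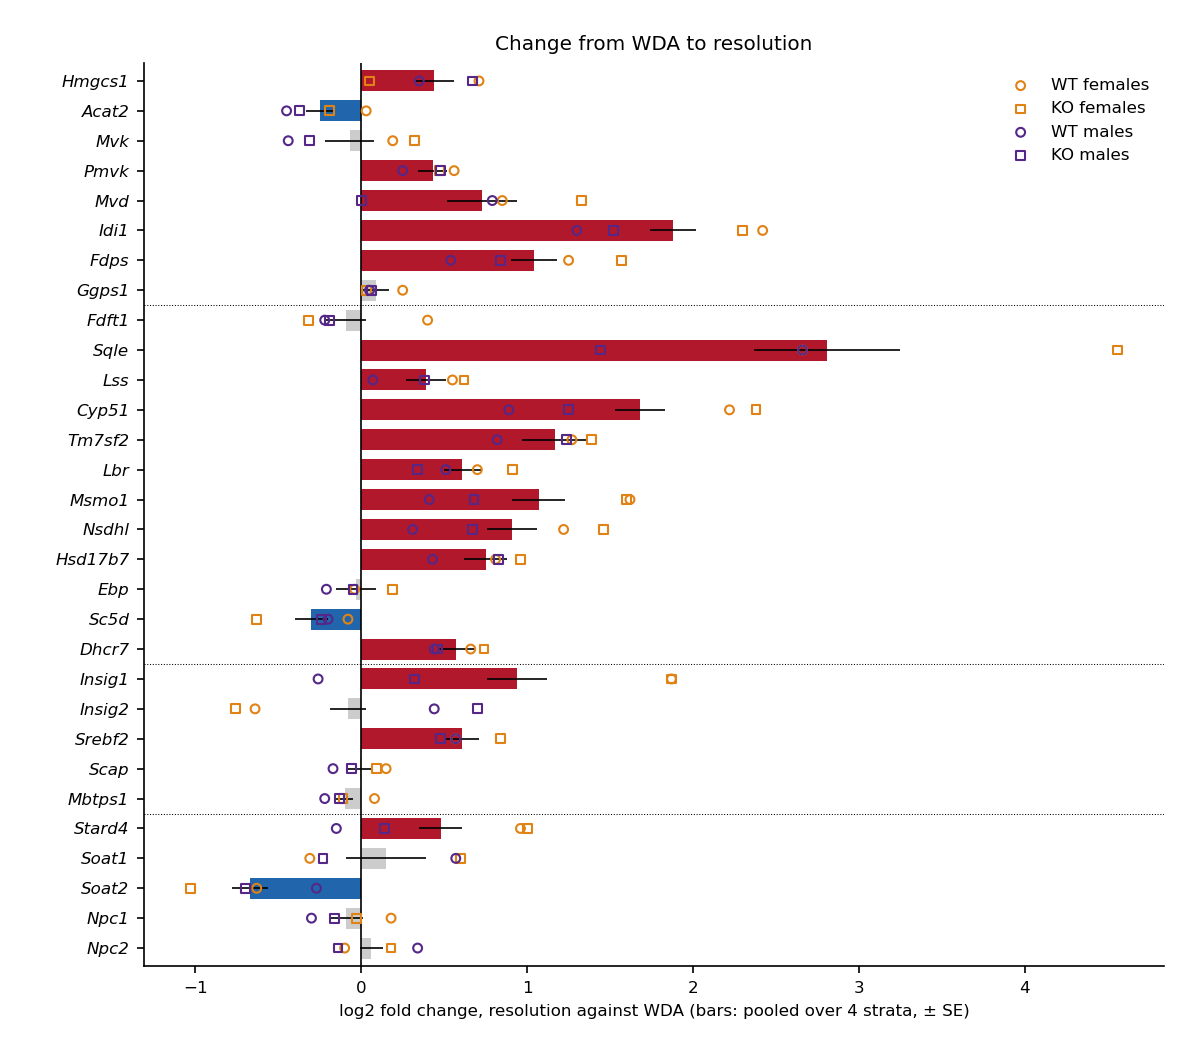
Log2 fold change of resolution against WDA for each gene. Bars give the estimate over WT and KO females and males with its SE (red called higher, blue called lower, gray not called), and open symbols give the separate comparisons in WT (circles) and KO (squares) females (orange) and males (purple). Female symbols lie to the right of the male symbols for *Cyp51*, *Msmo1* and *Insig1* and to their left for *Insig2*.

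Among the control proteins, *Srebf2* ran from 21.5 over a median of 27.3 to 32.7 CPM on WDA and from 29.6 over 38.9 to 60.5 CPM in resolution, and the stages overlapped in a few mice. Its log2 fold change was 0.61 (SE 0.10, adjusted p = 8.49e-05). *Scap*, which escorts SREBP2 to the Golgi, ran from 70.7 over 91.8 to 128 CPM on WDA and from 78.9 over 97.3 to 134 CPM in resolution. Its log2 fold change was -0.01 (SE 0.08), a value that lies on 0. *Mbtps1*, the site-1 protease that makes the first cut in SREBP2, was not called either (-0.10, SE 0.05, adjusted p = 0.125).

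The INSIG genes differed between the sexes in their change between stages, as tested further on. *Insig1*, itself a target of SREBP2, lay at 23.3, 31.3 and 14.5 CPM in WT and 36.1, 30.1 and 22.7 CPM in KO WDA females, and at 153, 59.6 and 40.4 CPM in WT and 104, 98.9 and 122 CPM in KO Res females. In males it lay at 39.7, 33.2 and 32.5 CPM (WT) and 34.5, 27.9 and 39.2 CPM (KO) on WDA, and at 25.1, 27.2 and 34.3 CPM (WT) and 57.9, 44.7 and 22.8 CPM (KO) in resolution. Every Res female was above every WDA female, whereas the male stages overlapped. Pooled over the sexes, its log2 fold change was 0.94 (SE 0.18, adjusted p = 0.000536).

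*Insig2*, the paralog whose liver transcript is repressed by insulin, was the most abundant gene of the list. It lay at 1148, 1088 and 801 CPM in WT and 1380.2, 1535 and 1864 CPM in KO WDA females, and at 705, 622 and 613 CPM in WT and 926, 961 and 928 CPM in KO Res females. In males it lay at 709, 733 and 524 CPM (WT) and 673, 472 and 489.9 CPM (KO) on WDA, and at 1047, 728 and 860.5 CPM (WT) and 671, 689.8 and 1266 CPM (KO) in resolution. Within each female vector group the Res mice were all below the WDA mice, and the male stages overlapped. The pooled log2 fold change of -0.08 (SE 0.11) therefore averaged opposite signs.

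Of the transport and storage genes, *Stard4*, a soluble sterol carrier, rose by 0.48 over all strata (SE 0.13, adjusted p = 0.00601). It ran from 12.3 over a median of 18.8 to 27.2 CPM on WDA and from 13.6 over 26.1 to 39.7 CPM in resolution, with wide overlap. Its log2 change was higher in females than in males by 1.0 (SE 0.25), called by DESeq2 (adjusted p = 0.0219) but not by edgeR (adjusted p = 0.127). In the separate comparisons edgeR called *Stard4* in KO females only, so the pooled value does not describe a rise in both sexes. *Soat2*, which forms cholesteryl esters in hepatocytes, was lower in resolution. It ran from 22.7 over 34.0 to 48.6 CPM on WDA and from 11.5 over 21.5 to 28.6 CPM in resolution, with a log2 fold change of -0.67 (SE 0.11, adjusted p = 0.000177). *Soat1*, the isoform of most other cells, ran from 2.74 over 5.25 to 18.4 CPM on WDA and from 4.06 over 6.63 to 10.1 CPM in resolution (0.15, SE 0.24, adjusted p = 0.668).

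The highest *Soat1* values, 18.4 and 13.8 CPM, belonged to mice 7 and 17, the livers with high cholangiocyte, stellate cell and macrophage markers. Without these mice, *Soat1* was called higher in resolution (log2 fold change 0.56, adjusted p = 0.00945), as was *Npc2* (0.16, adjusted p = 0.0136), and 22 genes of the list were called in all. With all mice, the lysosomal exporters *Npc2* (0.06) and *Npc1* (-0.09) were not called. The part of the cell types in these values was not tested.

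**Figure D3:**
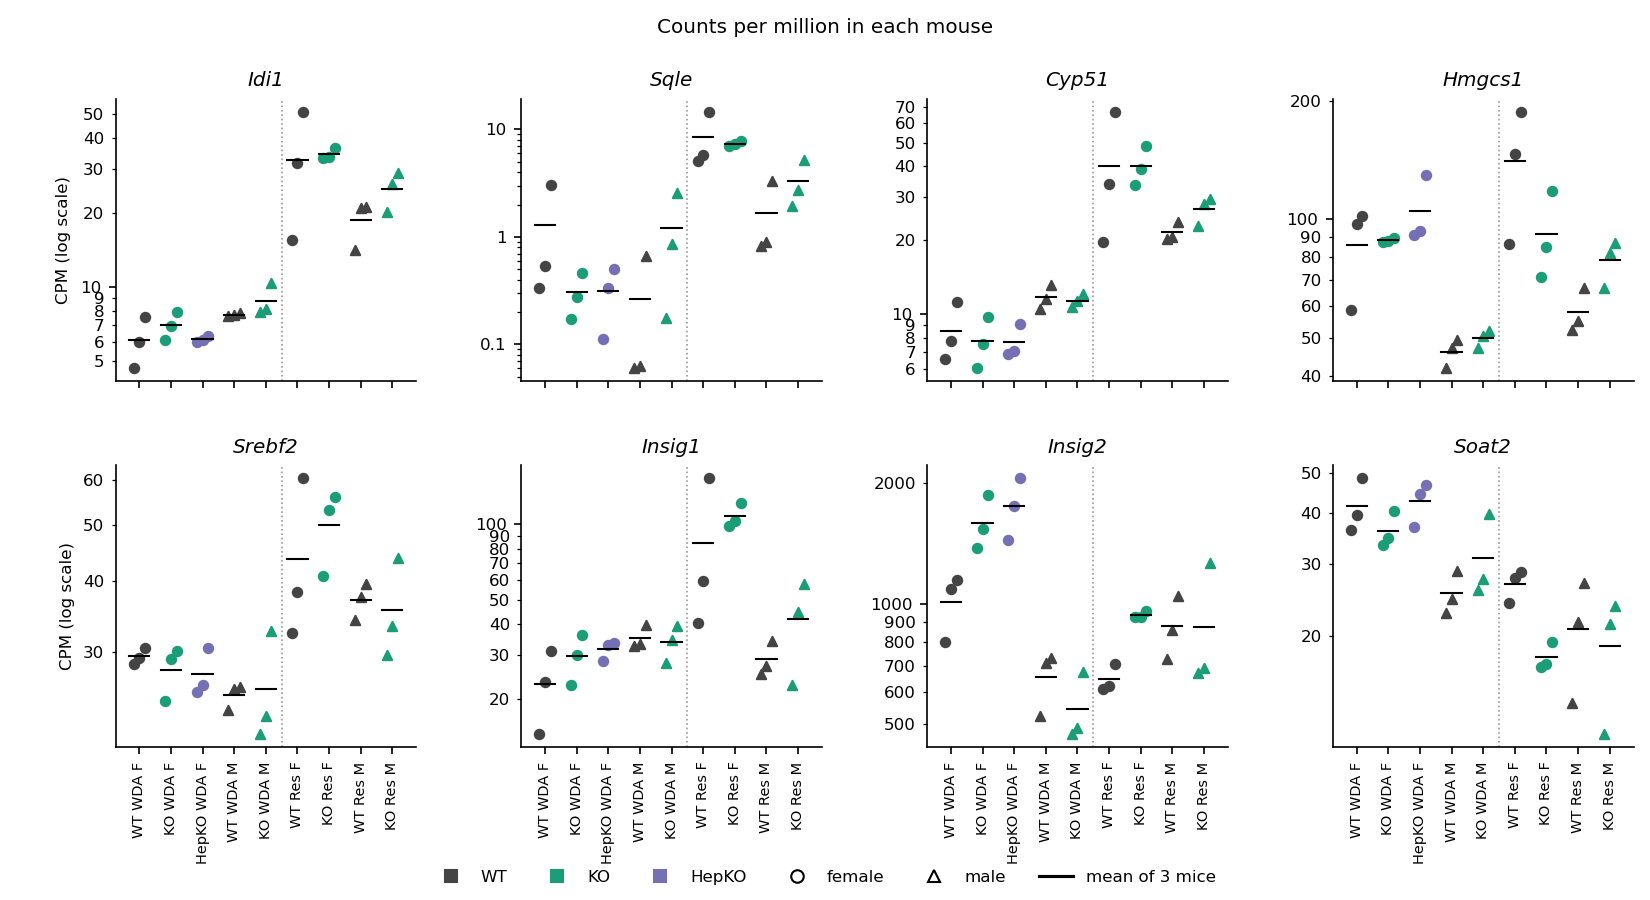
CPM (log axis, each panel with its own range) of 8 genes in every mouse, by group, with the mean of 3 mice as a bar and the change of stage as a dotted line. *Idi1* and *Cyp51* separate the stages completely, *Soat2* is lower in resolution, *Insig1* separates the stages in females but not in males, and *Insig2* does so in females within each vector group.

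The change was also examined in each sex and vector group alone, with 3 mice against 3. In KO females 16 genes rose and 3 fell (20.4% of all genes called, 10.2% higher and 10.2% lower). The rises included *Sqle* (log2 fold change 4.56), *Cyp51* (2.38), *Idi1* (2.30), *Insig1* (1.87), *Msmo1* (1.60), *Fdps* (1.57), *Nsdhl* (1.46), *Tm7sf2* (1.39) and *Mvd* (1.33). They also took in *Stard4* (1.0), *Hsd17b7* (0.96), *Lbr* (0.91), *Srebf2* (0.84), *Dhcr7* (0.74), *Lss* (0.62) and *Pmvk* (0.47), of which *Pmvk* was called in 0 and *Lss* in 2 of the 6 fits that each left out 1 mouse. The *Mvd* call was also kept in 2 of these fits. *Soat2* (-1.03), *Insig2* (-0.76) and *Sc5d* (-0.63, called in 3 of the 6 fits) fell. The count of 19 called genes was 15 to 18 in those fits. In this stratum 22 of 30 genes did not overlap between the stages, 18 of them higher, against 40.4% of all genes not overlapping and 20.1% higher.

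In WT males 6 genes rose and 1 fell (11% of all genes called, 4.99% higher and 5.98% lower). *Idi1* rose by 1.30, *Cyp51* by 0.89, *Tm7sf2* by 0.82, *Srebf2* by 0.57, *Dhcr7* by 0.44 and *Npc2* by 0.34, while *Acat2* fell by 0.45. Single mice decided this count: it was 3, 2 and 0 without WDA males 19, 20 and 21, and 4, 7 and 10 without Res males 8, 7 and 9.

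In WT females edgeR called 0 of 30 genes (0% of all genes called), although 13 had an unadjusted p under 0.05 (13.6% of all genes) and DESeq2 called 7. *Idi1* had a log2 fold change of 2.42 (SE 0.43), *Cyp51* 2.22 (SE 0.45), *Insig1* 1.87 (SE 0.52) and *Msmo1* 1.62 (SE 0.45), none past the adjusted threshold. With the spread taken from all 9 groups, 8 genes were called. WT Res female mouse 1 had the highest value of all 27 mice in 13 of the 20 synthesis genes, while mouse 13 of the same group was the lowest Res female for *Idi1*, *Cyp51* and *Insig1*. In KO males edgeR also called 0 of 30 (0% of all genes called), with 11 at an unadjusted p under 0.05 (6.43% of all genes) and 3 called by DESeq2. *Idi1* there had a log2 fold change of 1.52 (SE 0.20) and *Cyp51* 1.25 (SE 0.16). In WT females 11 genes did not overlap between stages (20.4% of all genes), in WT males 16 (36%) and in KO males 9 (12.9%). The change between stages was not shown to differ between KO and WT mice: edgeR called 0 of 30 genes in that test (0% of all genes), 0 at an unadjusted p under 0.05 (3.68% of all genes), and DESeq2 called 0.

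Summed up per mouse over the 20 synthesis enzymes, the median log2 deviation from the WDA median was -0.19 to 0.09 in the WDA livers, HepKO included. It was 0.34 to 1.14 in Res females and 0.26 to 0.56 in Res males. All 12 Res livers were above all 15 WDA livers.

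Other measures were also compared between the stages, where 31.7% of all genes were called over all strata, 15% higher and 16.7% lower. *Dbp*, a clock output gene that follows the hour of the day, was at 1.67 to 5.17 CPM in every Res liver and at 12.0 to 68.3 CPM in the WDA males. In KO females *Dbp* was at 4.52 to 5.07 CPM on WDA and 3.46 to 5.17 CPM in resolution. Even so, 8 of 15 clock genes were called there, 6 higher and 2 lower (20.4% of all genes called). These included *Ciart* (log2 fold change 3.27), *Per1* (1.85), *Cry1* (1.08), *Npas2* (-1.25) and *Nr1d1* (-1.08). Of 6 hepatocyte markers, 2 were called higher in resolution and none lower, against 15% of all genes higher and 16.7% lower. Of the 6 estimates 3 were negative (median -0.02). Their summed CPM was 72521 to 111154 on WDA and 83337 to 168045 in resolution, with none at 0. Most of it was *Alb*, at 54610 to 90946 CPM on WDA and 63871 to 144114 CPM in resolution. Of 4 lymphocyte markers 3 were higher (11.7 to 31.97 CPM on WDA, 14.5 to 34.8 CPM in resolution), and both neutrophil markers were (0.877 to 5.51 and 1.94 to 17.5 CPM). Of 4 endothelial markers 2 were higher (117 to 221 CPM on WDA, 124 to 229 CPM in resolution), and over all strata 4 of the 15 clock genes were higher and 3 lower. None of 6 cholangiocyte, 7 macrophage or 6 stellate cell markers was called. The part of these in the stage values was not tested.

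The second question was whether females and males differed at each stage, over WT and KO mice. The sexes of each experiment were deposited in separate tables, so sex coincides with table, and these cannot be told apart. On WDA, 3 of 30 genes were called (4.77% of all genes, 2.59% higher in females and 2.19% lower): *Hmgcs1* (log2 fold change of females against males 0.86, SE 0.17, adjusted p = 0.00237) and *Insig2* (1.09, SE 0.16, adjusted p = 0.000182) were higher in females, and *Scap* was lower (-0.43, SE 0.11, adjusted p = 0.0282). *Hmgcs1* ran from 58.7 over a median of 88.8 to 102 CPM in WDA females and from 41.9 over 48.1 to 51.9 CPM in WDA males, without overlap. *Insig2* ran from 801 to 1864 CPM in females and from 472 to 733 CPM in males, also without overlap. *Scap* ran from 70.7 to 94.1 CPM in females and from 85.4 to 128 CPM in males, where only mouse 17 was inside the female range. The *Scap* call was kept in 17 of 27 fits that left out 1 mouse, and without mouse 17 5 genes were called. *Dbp* also differed between these groups, at 3.15 to 5.07 CPM in all WDA females of WT and KO but mouse 6 (32.5 CPM), and 6 of 15 clock genes were called between the sexes on WDA (3 in each direction). Their part was not tested.

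In resolution, 7 of 30 genes were called, all higher in females (6.64% of all genes called, 3.25% higher). *Insig1* had a log2 fold change of 1.46 (SE 0.26, adjusted p = 0.00105). It ran from 40.4 over a median of 101 to 153 CPM in females and from 22.8 over 30.8 to 57.9 CPM in males. *Hmgcs1* (0.75), *Cyp51* (0.74), *Lbr* (0.70), *Nsdhl* (0.69), *Hsd17b7* (0.66) and *Idi1* (0.63) were the others. This count was 12 without WT Res female 13, the Res liver with the highest cholangiocyte and stellate cell markers, and 3 without WT Res female 1, KO Res female 4, KO Res male 6 or WT Res male 8. The values for *Idi1* and *Nsdhl* stayed below the adjusted threshold of 0.05 in only 5 and 6 of 27 fits that each left out 1 mouse, against 27 of 27 for *Insig1*, *Hmgcs1* and *Lbr*. Of the 30 genes 27 had a higher estimate in females (median 0.30), against 10 of 30 on WDA (median -0.10).

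The difference between the sexes itself differed between the stages for *Insig1* and *Insig2* (0.288% of all genes called). The log2 change from WDA to resolution was higher in females than in males by 1.86 for *Insig1* (SE 0.36, adjusted p = 0.0277). It was lower in females by 1.26 for *Insig2* (SE 0.23, adjusted p = 0.0183). In the separate comparisons the log2 fold change of *Insig1* was 1.87 in both WT and KO females and -0.26 and 0.32 in WT and KO males. That of *Insig2* was -0.64 and -0.76 in WT and KO females and 0.44 and 0.70 in WT and KO males. Of these 8 values, those in KO females passed the adjusted threshold. DESeq2 also called *Cyp51* (1.25) and *Stard4* (1.0), for which the edgeR adjusted p was 0.0803 and 0.127. The *Insig1* call was kept in 15 of 27 fits that left out 1 mouse, and the *Insig2* call in 24. Neither gene was called without KO WDA male 18, WT WDA male 21 or WT Res male 7, and 5 genes were called without WT Res female 13. Clock genes also differed in the stage by sex test: 11 of 15 had an unadjusted p under 0.05, against 1048 of all 13534 genes. Of these 15, edgeR called 2 and DESeq2 called 7, with a median log2 difference of 0.88. Their part was not tested.

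**Figure D4:**
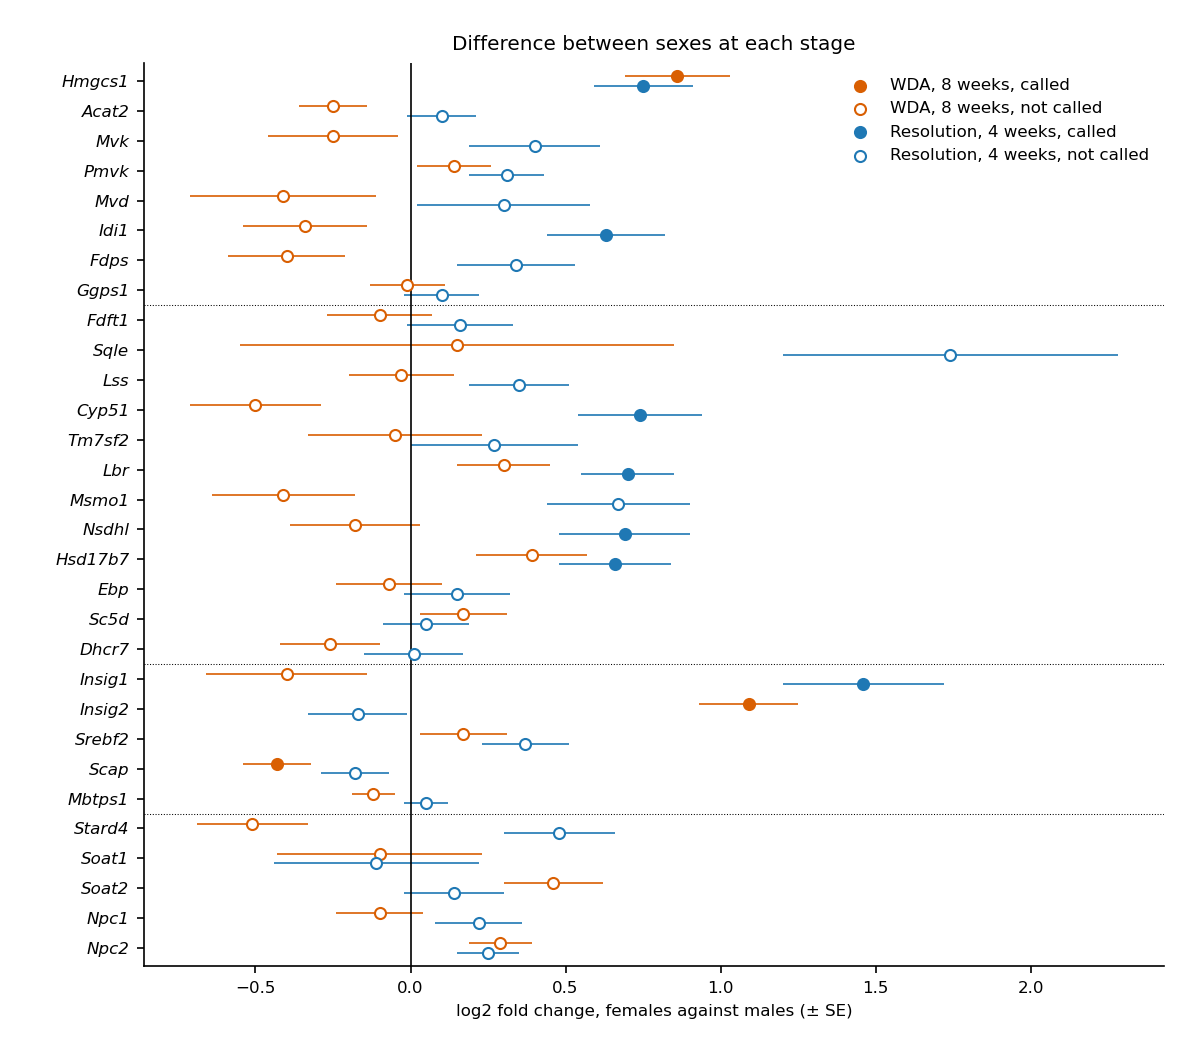
Log2 fold change of females against males for each gene, with SE, on WDA (orange) and in resolution (blue), over WT and KO mice. Filled points passed an adjusted p of 0.05. *Hmgcs1* is filled at both stages, *Insig2* and *Scap* are filled on WDA, and *Insig1* is filled in resolution.

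The third question was whether loss of *Kdm5b* changed these genes. No gene of the list was called by edgeR between KO and WT mice at either stage. On WDA, over both sexes, the log2 fold changes ran from -0.29 (*Fdps*) to 0.23 (*Lbr*), with a median SE of 0.17, 0 genes at an unadjusted p under 0.05 (3.29% of all genes) and 0 called by DESeq2 (0% of all genes called by edgeR). In resolution they ran from -0.37 (*Soat2*) to 0.44 (*Insig1*), with a median SE of 0.17, 2 genes at an unadjusted p under 0.05 (11% of all genes) and 0 called by DESeq2 (0.192% of all genes called by edgeR). With 3 mice per group, standard errors of this size limit the detection of small changes.

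Within strata edgeR called 0 genes as well (0% of all genes in each). In WDA females 2 of 29 tested genes (3.11% of all genes), and in WDA males 1 of 30 (7.71% of all genes), had an unadjusted p under 0.05, and DESeq2 called 0 in both. In Res females 5 genes had an unadjusted p under 0.05 (19.2% of all genes) and DESeq2 called 2, *Soat2* (log2 fold change -0.63) and *Insig2* (0.50). In Res males 1 gene had an unadjusted p under 0.05 (1.45% of all genes) and DESeq2 called 0. *Sqle* had too few counts to be tested in the WDA females.

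Some genes did not overlap between the vectors in females. *Insig2* lay at 1380 to 1864 CPM in KO and 1445 to 2059 CPM in HepKO WDA females, both above the 801 to 1148 CPM of WT. The log2 fold change was 0.64 (SE 0.23, adjusted p = 0.978) for KO and 0.79 (SE 0.22, adjusted p = 0.335) for HepKO. *Hsd17b7* lay at 52.2 to 58.7 CPM in KO and 53.4 to 55.6 CPM in HepKO, above the 27.2 to 47.0 CPM of WT. The log2 fold change was 0.57 (adjusted p = 0.978) and 0.54 (adjusted p = 0.445). Both comparisons share the 3 WT females, and one of these, mouse 7, had the lowest value for both genes. In Res females *Insig2* was at 926 to 961 CPM in KO and 613 to 705 CPM in WT (0.49, adjusted p = 0.123), and *Hsd17b7* was at 104 to 115 against 40.02 to 94.96 CPM (0.70, adjusted p = 0.209). *Soat2* was at 16.8 to 19.3 CPM in KO and 24.1 to 28.6 CPM in WT Res females (-0.64, adjusted p = 0.0895). In males these genes overlapped between the vectors at both stages. The number of genes without overlap was 5 of 29 in WDA females (8.81% of all genes), 4 of 30 in Res females (26.2%), 4 of 30 in WDA males (16.3%) and 1 of 30 in Res males (4.64%). In Res females and in males at both stages the share in the list was thus below that of all genes. The genes above were named because they did not overlap, which is no result about the list. For HepKO against WT the share over all genes is not given here.

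Single WT mice decided some of these results. Without WT Res female mouse 1, *Hsd17b7* (log2 fold change 1.05), *Insig1* (1.07) and *Soat2* (-0.59) were called in KO against WT Res females, and *Insig1* (0.82) over both sexes. Without WT WDA female mouse 7, *Insig2* (0.65) and *Tm7sf2* (-0.63) were called in HepKO against WT. With all mice, HepKO against WT females had 0 of 29 genes called by edgeR, 2 at an unadjusted p under 0.05 (10.1% of all genes) and 1 called by DESeq2, *Insig2* (0% of all genes called). HepKO against KO females had 0 of 29 called, 1 at an unadjusted p under 0.05 (5.74% of all genes) and 0 called by DESeq2 (0.0162% of all genes called by edgeR). There the estimates ran from -0.43 (*Tm7sf2*) to 0.32 (*Soat1*), with a median SE of 0.16.

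**Figure D5:**
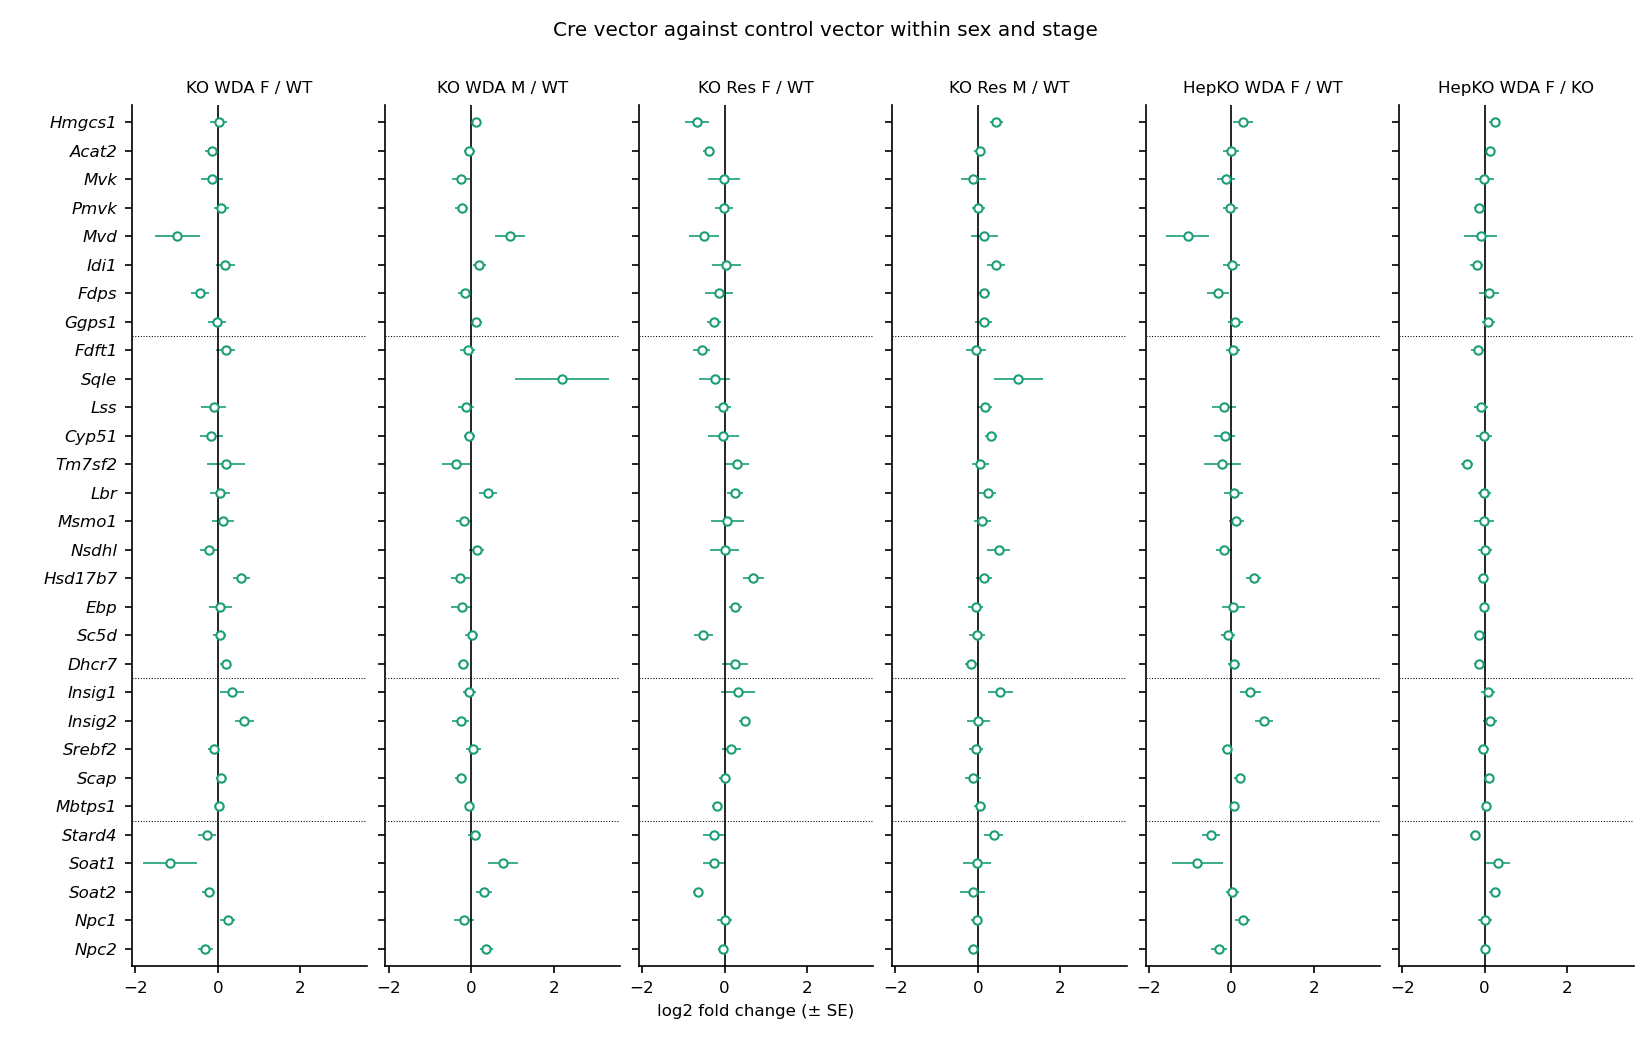
Log2 fold change with SE for each gene in the 6 comparisons between vectors within sex and stage. All points are open because none passed an adjusted p of 0.05, and *Sqle* is missing from the 3 panels of WDA females. *Insig2* and *Hsd17b7* lie to the right of 0 in the females of KO and HepKO against WT.

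Other genes linked to the pathway, taken from lists written for comparison, were also measured between WDA and resolution, where 31.7% of all genes were called, 15% higher and 16.7% lower. The share of genes called among those of uptake, of isoprenoid use and otherwise linked to SREBP2 lay near that background and is no result about these lists. Of 7 tested genes of lipoprotein uptake and the lysosome, *Mylip*, the ligase that degrades lipoprotein receptors, was higher (log2 fold change 0.26). *Lipa*, the lysosomal lipase that frees cholesterol (-0.65), and *Scarb1*, the receptor for HDL (-0.48), were lower. Among the genes of sterol-regulated degradation, *Erlin1* (-0.94), *Rnf145* (-0.37) and *Erlin2* (-0.30) were lower, and no gene of that list was called higher. Of 8 genes that use isoprenoids for other ends 3 were lower and none higher: *Fntb* (-0.76), a subunit of the farnesyltransferase, *Dhdds* (-0.30), of dolichol synthesis, and *Coq2* (-0.24), of coenzyme Q synthesis. Of 5 tested genes otherwise linked to SREBP2, *Rdh11*, a retinol dehydrogenase, was higher (0.71), and *Aacs*, the acetoacetyl-CoA synthetase, was lower (-0.62).

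Most of the called genes of fatty acid synthesis and sterol efflux were lower in resolution. Of 13 genes of lipogenesis 6 were lower and 1, *Acacb* (0.69), was higher, with a median of -0.17. Of the 13 estimates 6 were positive, *Fasn* (0.28) and *Acly* (0.17) among them without a call, and 7 were negative. Their summed level was 9713 to 27765 CPM on WDA and 2765 to 4383 CPM in resolution. That sum is weighted to abundant genes and fell more than any single gene but *Scd1*, so it does not describe the list as a whole. *Scd1*, the stearoyl-CoA desaturase, was lower by 3.36 on the log2 scale (log2 fold change -3.36), *Elovl6*, a fatty acid elongase, by 1.53 (-1.53) and *Srebf1*, which encodes SREBP1, by 1.06 (-1.06). The list for sterol efflux holds the LXR receptors *Nr1h3* (-0.08) and *Nr1h2* (-0.11), which were not called, and 5 of their targets, which were all lower (median of the 7 genes -0.49), led by the sterol exporters *Abcg5* (-1.69) and *Abcg8* (-1.30). *Mylip*, another target of LXR, was higher over all strata (0.26). Its estimate was 0.72 in KO females, where it was called. It was 0.17 in WT females, 0.17 in KO males and -0.01 in WT males, without a call. The summed level of the 7 genes was 732 to 1604 CPM on WDA and 499.8 to 746 CPM in resolution. Averaged over the strata, *Srebf1* and *Srebf2* thus moved in opposite directions. Within strata *Srebf1* was called lower in WT males (-0.87) only. It was not called in WT females (-1.79), KO males (-1.22) or KO females (-0.31, SE 0.28).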

How the data were processed

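Whole-liver RNA was sequenced in 27 mice. The authors deposited, per gene and library, expected counts (estimated reads, not normalized) and FPKM values (scaled by transcript length and library total). The submitters' processing notes name HISAT, Bowtie2 and the build GRCm38.p6. The counting tool is not given in the sources used here. The 4 tables, which separate the sexes of each experiment, list 16588 to 16725 genes each. A gene missing from a table was set to 0 there. Counts were rounded (7.34% to 8.09% were not whole) and tested in R 4.3.3 with edgeR 4.0.16 (filterByExpr minimum count 10, TMM scaling, glmQLFit and glmQLFTest), with Benjamini-Hochberg adjustment over all genes at 0.05. Comparisons over both sexes or stages used 1 fit of 9 groups, and comparisons within a stratum used their own 2 groups. Levels are CPM with TMM scaling. FPKM was used only to order genes by level. The scripts were tested on simulated data.

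Alternatives were RLE scaling, library totals without scaling factors, no filter, DESeq2 1.42.0, a spread shared by all 9 groups and leaving out each mouse. Leaving out WDA mice 7 and 17 together was chosen after seeing the data. Same-group libraries differed beyond sampling noise (chi-square per degree of freedom at least 14.5), so none was counted as a duplicate. Named were all 30 members, with values per mouse or ranges for the 10 with the largest called change between stages and for *Srebf2*, *Scap*, *Insig1*, *Insig2*, *Stard4*, *Soat1* and *Soat2*. Members called in another comparison and genes of fixed lists were also named. Members and lists were chosen with earlier results of these data known. Not every gene of the comparison lists is reported here. Promoters are from RefSeq.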

Additional observations from a re-analysis of the deposited data

Results flagged for a closer look

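The change from WDA to resolution differed between the sexes for 2 genes by an interaction test (edgeR, adjusted over all genes). For *Insig1* the log2 change in females minus that in males was 1.86 (SE 0.36, adjusted p = 0.0277). It was kept in 15 of 27 fits that left out 1 mouse, with a range of 1.48 to 2.02. For *Insig2* the difference was -1.26 (SE 0.23, adjusted p = 0.0183). It was kept in 24 of 27 fits, with a range of -1.35 to -1.08. Both vector groups of each sex entered these tests, with 3 mice each. Of 15 clock genes, 11 had an unadjusted p under 0.05 in the same test, and their part was not tested.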

How the results depend on the processing

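Precision rests on 3 mice per group, and *Sqle* and *Mvd* had few counts. The count of called genes between stages over all strata was 20 with DESeq2 and 19 to 21 when single mice were left out. DESeq2 moved other counts: 4 for the stage by sex test (2 in edgeR), 7 for stage in WT females (0), 3 for stage in KO males (0), 2 for KO against WT Res females (0) and 1 for HepKO against WT females (0). A spread shared by all 9 groups gave 8 for stage in WT females, 2 in KO males and 1 in WT males (7 in their own fit). The cause of these shifts was not tested. With single mice left out, counts ran from 15 to 18 for stage in KO females (19 with all mice), 0 to 10 for stage in WT males, 0 to 5 for stage by sex, 3 to 12 for sex in resolution, 2 to 5 for sex on WDA, 0 to 3 for KO against WT Res females, 0 to 1 for KO against WT in resolution and 0 to 2 for HepKO against WT females. Reversed signs occurred only at values near 0 in the stage comparison. *Scap* was at 0.00 with RLE scaling, DESeq2 and library totals and ran from -0.07 to 0.03 with single mice left out, *Ebp* from -0.09 to 0.03 and *Mvk* from -0.21 to 0.00. Of the other values for single genes, 316 kept direction and side of the threshold under the other settings, 19 lost the call and 2 gained it. With single mice left out, 1143 kept both, 128 lost the call, 1 gained it and 18 changed sign. Both tallies cover every gene of the list for stage over all strata, but only genes already called in the other comparisons. A call gained in those other comparisons could therefore not enter the tallies, so they do not measure how often calls were gained. Such gains occurred, as for *Sqle* between the sexes in resolution and *Insig1* for KO against WT in resolution. The counts of called genes given above include them. No paired analysis was possible because mouse numbers repeat between experiments and name different animals.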
